A study of Mus musculus with 6 samples.

Results

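The 35 genes described here encode proteins of the cardiac sarcomere and of its Z-disc. They were chosen by symbol from the 17556 genes of a table of gene expression, and all 35 were found there. By the place of their products, 7 belong to the thick filament and the M-band, 8 to the thin filament and 15 to the Z-disc, and 5 are chaperones or ubiquitin ligases that fold, protect or remove sarcomere proteins. Bulk RNAseq was performed on left ventricles collected 4 days after permanent ligation of the left anterior descending artery (4 dpi), an operation that produces a myocardial infarction. The 3 Cre-positive mice carried Yap fl/fl, Wwtr1 fl/+ and Postn MCM, and their 3 Cre-negative siblings carried the same floxed alleles with wildtype Periostin. Mice of both groups were 6 to 10 weeks old, and ate a diet with tamoxifen citrate from the end of surgery. In Postn MCM mice the tamoxifen inducible recombinase MerCreMer is made from 1 copy of the endogenous Periostin locus, so that recombination of Yap and of 1 allele of Wwtr1 is directed to cells that express Periostin, which are chiefly myofibroblasts. Cardiomyocytes, the cells that build sarcomeres, are not the cells in which this driver is active, and the comparison asks how their contractile genes stood in ventricles of the 2 genotypes.

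In a sarcomere, myosin thick filaments pull on thin filaments of actin, and the thin filaments are anchored in the Z-disc by alpha-actinin. The thick filaments are crosslinked in the M-band, and titin spans the distance from the Z-disc to the M-band. Troponin and tropomyosin on the thin filament make the pull depend on calcium, and Z-disc proteins bind the filaments to the cytoskeleton and sense mechanical load. Many of these genes are mutated in inherited cardiomyopathies, and the ventricle transcribes them at very high levels.

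Estimated counts summed to between 13177888 and 14827579 per ventricle. Chi-square per gene, which is near 1 where only counting noise separates a pair of libraries, was 44.5 to 68.9 for the 5 pairs with Cre-negative replicate 1 and 8.13 to 17.2 for the other 10 pairs, so that Cre-negative replicate 1 stood apart. Of all genes tested, 30.8% had their highest normalized count in Cre-negative replicate 1. Cre-positive replicate 1 held transcripts of skeletal muscle, with 756 counts of the fast myosin Myh1 against 0 to 5 in the other libraries and 1068 counts of the fast-muscle calcium pump Atp2a1 against 6 to 15. Log2 fold changes of the 35 genes are given with all ventricles and without Cre-negative replicate 1, and also without Cre-positive replicate 1 where that moved a value by over 1.5 times. The plot of log2 fold changes shows both for all 35 genes. Normalized counts of the targeted genes overlapped between genotypes. Yap1 had 1550, 1476 and 1422 normalized counts in Cre-negative ventricles and 1619, 1439 and 1477 in Cre-positive ventricles (log2 fold change 0.03, SE 0.09), and Wwtr1 had a log2 fold change of 0.05 (SE 0.08). In TPM both genes were higher in all Cre-positive than in all Cre-negative ventricles, as were 15% of all genes on that scale, with 48.9 to 50.7 against 44.2 to 46.3 TPM for Yap1 and 43.9 to 47.4 against 39.3 to 43.6 TPM for Wwtr1. Postn, the locus of the driver, had 12182, 24690 and 26918 normalized counts in Cre-negative and 12708, 14270 and 13514 in Cre-positive ventricles (log2 fold change −0.66, SE 0.27, adjusted p = 0.714, edgeR's quasi-likelihood test), and −0.94 without Cre-negative replicate 1 (adjusted p = 0.018, same edgeR test).

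None of the 35 genes passed the test between genotypes (edgeR's quasi-likelihood test with Benjamini-Hochberg adjustment over 13817 genes), with adjusted p between 0.714 and 0.962. In the same test 1 gene of the whole table passed, which is 0.00724% of those tested. The log2 fold change, given throughout as Cre-positive over Cre-negative, was below 0 for 31 of the 35 genes and above 0 for 4, against 48.8% of all genes tested below 0. Its median over the 35 genes was −0.21, against 0.0062 over all genes tested. At an unadjusted p under 0.05, 4 of the 35 were lower (Myl2, Myl3, Tcap and Trim63) and 1 was higher (Xirp2). Of all genes tested, 2.98% were lower and 2.85% were higher by that measure. The DESeq2 Wald test called 0 of the 35 as well, with 9 lower and 1 higher at an unadjusted p under 0.05, against 3.53% and 2.34% of all genes. By the same measure 0 were lower and 3 higher with limma-trend on log2(TPM + 1), against 0.861% and 6.37% of all genes. With scaling to other cardiomyocyte genes 0 were lower and 3 higher, against 0.0651% and 3.94%. Without Cre-negative replicate 1, 4 were lower and 2 higher, against 421 and 501 of 13995 genes. Without Cre-negative replicate 2 the numbers were 3 and 0, against 512 and 390 of 13971. Without Cre-negative replicate 3 they were 5 and 2, against 776 and 570 of 14002. Without Cre-positive replicate 1 they were 1 and 1, against 258 and 298 of 13978. Without Cre-positive replicate 2 they were 0 and 0, against 0.923% and 1.76%. Without Cre-positive replicate 3 they were 2 and 0, against 232 and 281 of 13946.

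How far the group lay from 0 depended on a single ventricle, and on which side of 0 it lay depended on the scaling. Cre-negative replicate 1 held the highest normalized count of 28 of the 35 genes. Without that ventricle, 23 of the 35 genes had a log2 fold change below 0 and the median was −0.07, while without Cre-positive replicate 1 the values were 31 and −0.25. With values scaled by library size alone 28 genes were below 0 (median −0.14), and on the log2(TPM + 1) scale 26 were below 0 (median −0.08, where the median of all genes was 0.11). When the ventricles were scaled to 15 cardiomyocyte genes outside the sarcomere, which moved the median of all genes to 0.31, 7 of the 35 genes were below 0 and 28 above (median 0.15). Relative to the median of all genes in the same scaling, 30 of the 35 lay below it with that scaling and 31 in the fit of all 6 ventricles. In whole tissue, fewer cardiomyocytes and less RNA of these genes per cardiomyocyte cannot be told apart.

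**Figure D1:**
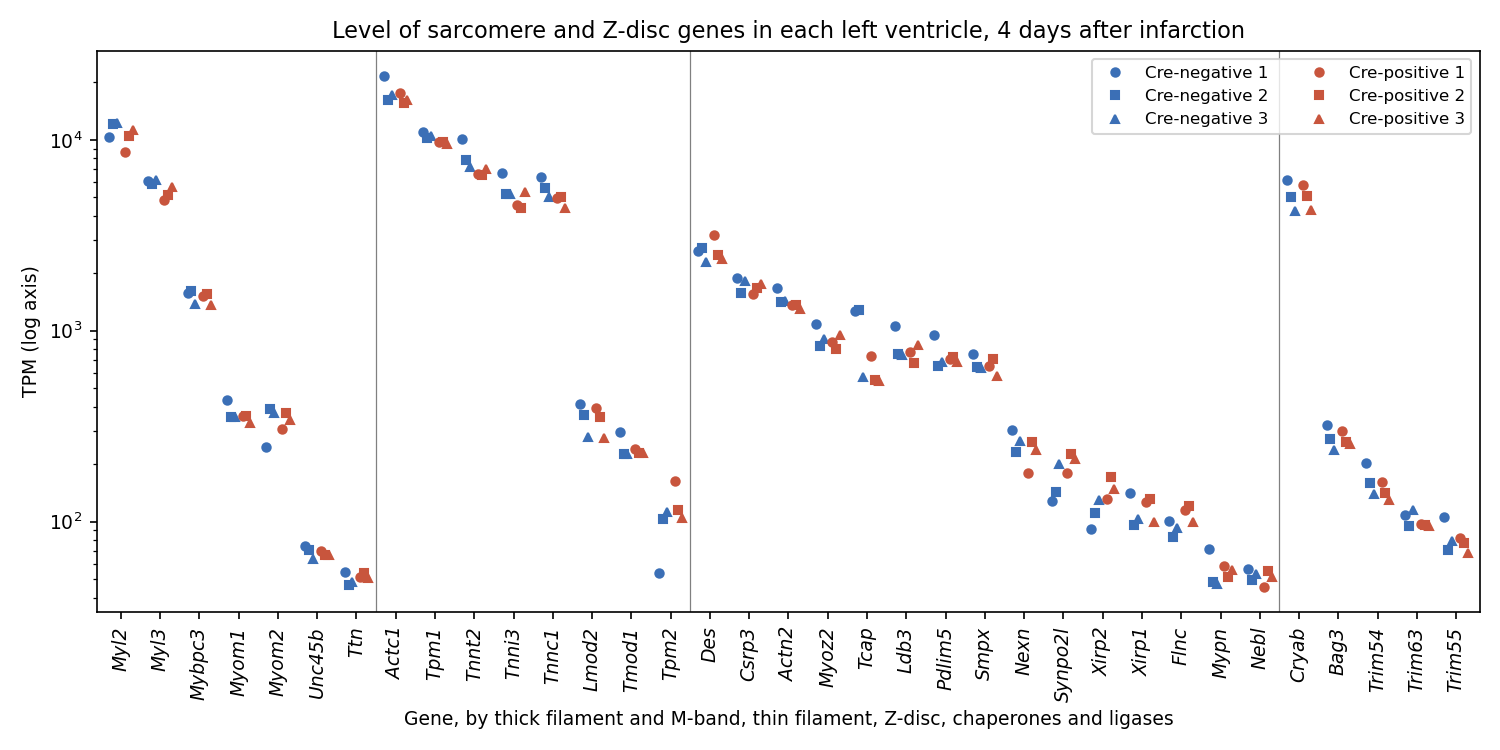
Each point is the TPM of 1 gene in 1 left ventricle on a log axis, with Cre-negative ventricles in blue and Cre-positive ventricles in red, marker shape giving the replicate, and genes ordered by mean TPM within thick filament and M-band, thin filament, Z-disc, and chaperones and ligases. The levels run from Actc1, at 15634 to 21511 TPM, to Ttn, at 46.7 to 54.3 TPM, and within most genes the points of both genotypes overlap.

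On the TPM scale, which is per transcript length and allows genes to be compared, the 35 genes spanned from 17380 TPM (mean of 6 ventricles) for Actc1 to 50.9 for Ttn. By this mean, the 7 most abundant were all filament proteins. Actc1 was followed by Myl2 with 10849 TPM, Tpm1 with 10118, Tnnt2 with 7533, Myl3 with 5629, Tnni3 with 5234 and Tnnc1 with 5218. Myl2 and Tpm1 overlapped in their ranges over ventricles (8655 to 12257 and 9526 to 11035 TPM), as did Tnni3 and Tnnc1. The small heat shock protein Cryab came next at 5089 TPM, and Des led the Z-disc genes at 2611 TPM. In Cre-positive ventricles alone the mean of Cryab (5046 TPM) was above those of Tnnc1 (4789 TPM) and Tnni3 (4770 TPM). Ttn, the lowest of the 35 on this scale, had 32328 to 41952 normalized counts per ventricle, a scale that is not divided by length.

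The 250 bases before the start site were searched for motifs in the 29 of the 35 genes that a RefSeq promoter table for GRCm38.p6 held, in 39 windows, since some genes have several start sites. Windows for Myom2, Nexn, Xirp1, Trim55, Tcap and Cryab were not analysed here. The motifs, each searched on both strands, were the M-CAT element CATTCCT and the core GGAATG, both bound by TEAD factors, which are the DNA-binding partners of Yap and Wwtr1, the GATA motif AGATAA, the TATA box TATAAA, the MEF2 motif and the CArG box. GGAATG is contained in the reverse complement of CATTCCT, so every M-CAT match is also a core match. M-CAT was found in 15.4% of the 39 windows against 4.51% of all 32851 windows of the table, and the core in 25.6% against 12.6%. The MEF2 motif was found in 15.4% against 2.92%, and the CArG box in 15.4% against 1.47%. The GATA motif was found in 15.4% against 9.99%, and the TATA box in 10.3% against 12.4%. The genes with an M-CAT match were Flnc, Myl3, Nebl, Tnnt2, Tpm1 and Trim54. Of these, Flnc had a log2 fold change above 0 and the others had values below 0, as did 31 of the 35 genes. These matches describe letters in a window, and binding to them was not tested.

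Of the windows, 4 are printed from 5′ to 3′ on the strand of the gene, in lower case with matches in capitals. The windows of Tnnt2 (chr1:135836084-135836333, plus strand) and Myl3 (chr9:110763428-110763677, plus strand) are shown because they hold M-CAT and belong to genes whose genotypes did not overlap in normalized counts. Tpm1 also met both conditions, and its window is not printed because its log2 fold change was the nearest to 0 of the 3. Those of Xirp2 (chr2:67445752-67446001, plus strand) and Synpo2l (chr14:20668355-20668604, minus strand) are shown because these genes had log2 fold changes above 0 and both hold the MEF2 motif. Capitals mark the GATA motif on the reverse strand (−166 to −161, counted back from the start site) and M-CAT (−27 to −21) in Tnnt2. In Myl3 they mark the core (−177 to −172), M-CAT (−149 to −143) and a CArG box (−85 to −76). In Xirp2 and Synpo2l they mark the MEF2 motif, at −74 to −65 and −109 to −100.
Tnnt2: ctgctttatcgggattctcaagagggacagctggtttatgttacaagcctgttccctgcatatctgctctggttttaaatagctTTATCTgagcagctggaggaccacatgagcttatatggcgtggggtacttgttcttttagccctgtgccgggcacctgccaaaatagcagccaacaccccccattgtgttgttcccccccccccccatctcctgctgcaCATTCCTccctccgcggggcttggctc
Myl3: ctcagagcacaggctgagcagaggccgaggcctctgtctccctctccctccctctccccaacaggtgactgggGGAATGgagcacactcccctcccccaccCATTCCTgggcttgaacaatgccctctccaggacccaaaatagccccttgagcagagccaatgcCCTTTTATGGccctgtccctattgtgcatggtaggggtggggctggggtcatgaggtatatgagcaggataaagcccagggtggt
Xirp2: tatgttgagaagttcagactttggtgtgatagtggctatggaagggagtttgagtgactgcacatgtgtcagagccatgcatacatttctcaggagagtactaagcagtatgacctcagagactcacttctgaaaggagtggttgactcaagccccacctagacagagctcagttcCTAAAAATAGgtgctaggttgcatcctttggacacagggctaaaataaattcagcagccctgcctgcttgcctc
Synpo2l: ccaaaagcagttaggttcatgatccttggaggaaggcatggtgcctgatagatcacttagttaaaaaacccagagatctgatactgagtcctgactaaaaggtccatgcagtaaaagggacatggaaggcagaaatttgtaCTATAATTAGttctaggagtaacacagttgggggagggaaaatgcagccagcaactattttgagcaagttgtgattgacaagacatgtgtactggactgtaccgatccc

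Among the 7 genes of the thick filament and M-band, all 7 had a log2 fold change below 0, with a median of −0.17, while with scaling to the cardiomyocyte genes 2 of the 7 were below 0 and on the TPM scale 5 of the 7. Without Cre-negative replicate 1, 6 of the 7 were below 0 and the median was −0.10. In 2 of them, Myl2 and Myl3, the genotypes did not overlap. Myl2 (chr5:122092724-122113473) encodes the regulatory light chain of ventricular myosin. It had 50557, 52733 and 53063 normalized counts in Cre-negative replicates 1, 2 and 3 and 37331, 41816 and 46246 in Cre-positive replicates 1, 2 and 3. All 3 Cre-positive values were lower than all 3 Cre-negative values, and Cre-negative replicate 1 was here the lowest of its group. The log2 fold change was −0.32 (SE 0.13, 95% interval −0.63 to −0.01), which is 19.8% lower, and it was −0.34 without Cre-negative replicate 1 and −0.24 without Cre-positive replicate 1. On the TPM scale the genotypes of Myl2 overlapped, with 10382 to 12257 against 8655 to 11246.

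Myl3 (chr9:110763678-110769802) encodes the essential light chain of ventricular myosin, and its promoter is printed above. It had 43744, 37896 and 39124 normalized counts in Cre-negative ventricles and 30835, 30436 and 34245 in Cre-positive ventricles. The genotypes did not overlap, and they also did not overlap in TPM. For this gene the log2 fold change was −0.34 (SE 0.13, 95% interval −0.63 to −0.05) and −0.28 without Cre-negative replicate 1. Of all genes tested, 6.85% had Cre-positive normalized counts that were all lower than the Cre-negative ones and 7.55% had counts that were all higher. Of the 35 genes, 7 were all lower and 1 was all higher in this way, and in TPM the numbers were 4 and 1, where 2.44% of all genes tested were all lower and 15% all higher.

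The other genes of this group had log2 fold changes nearer to 0. Mybpc3, the myosin binding protein that brakes crossbridges, had a log2 fold change of −0.17 (SE 0.14), and Myom1, which crosslinks thick filaments in the M-band, had −0.26 (SE 0.15). For Unc45b, a chaperone of the myosin head, the value was −0.16 (SE 0.12). Without Cre-negative replicate 1 these were −0.10 for Mybpc3, −0.09 for Myom1 and −0.06 for Unc45b. For Ttn it was −0.06 (SE 0.14), and 0.06 without Cre-negative replicate 1. Myom2, another M-band protein, was the only gene of the group with its lowest normalized count in Cre-negative replicate 1 (10672, against 14982 and 14329 in the other Cre-negative ventricles and 11776 to 13145 in Cre-positive ones). Its log2 fold change was −0.10 (SE 0.15), −0.24 without that ventricle, −0.0053 without Cre-negative replicate 2 and −0.06 without Cre-positive replicate 1.

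Of the 8 genes of the thin filament 7 had a log2 fold change below 0, with a median of −0.26, while with scaling to the cardiomyocyte genes 3 of the 8 were below 0. Without Cre-negative replicate 1, 6 of the 8 were below 0 and the median was −0.12. Normalized counts of 4 genes did not overlap between genotypes (Tnnt2, Tnni3, Tnnc1 and Tpm1), all 4 with the lower values in Cre-positive ventricles, as in 6.85% of all genes tested. The 3 cardiac troponin subunits lay close together in log2 fold change, and all 3 were below 0 in every scaling tried. Tnnt2 (chr1:135836315-135852268), the subunit that holds troponin on tropomyosin, had 95207, 66241 and 60626 normalized counts in Cre-negative ventricles and 56262, 51156 and 56402 in Cre-positive ventricles. Cre-negative replicate 1 was far above the other 5 ventricles, and the lowest Cre-negative value was still above the highest Cre-positive one. The log2 fold change was −0.44 (SE 0.19, 95% interval −0.89 to 0.01), and −0.22 without Cre-negative replicate 1. Tnni3 (chr7:4518305-4522718), the inhibitory subunit, had 44299, 30892 and 30488 normalized counts against 26893, 23839 and 29945. The gap between the genotypes was small beside the spread within them, and in TPM they overlapped. For this gene the log2 fold change was −0.39 (SE 0.18), and −0.19 without Cre-negative replicate 1. Tnnc1 (chr14:31208312-31211729), the subunit that binds calcium, had 34553, 27247 and 24235 normalized counts against 23842, 22494 and 20187. Cre-negative replicate 1 was again the highest, and the genotypes did not overlap in normalized counts. Its log2 fold change was −0.37 (SE 0.16), and −0.22 without Cre-negative replicate 1.

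Actc1 (chr2:114047282-114052875), the actin of cardiac thin filaments and the most abundant of the 35 genes, had 261275, 177095 and 185103 normalized counts in Cre-negative and 191095, 156603 and 166866 in Cre-positive ventricles. The genotypes overlapped. The log2 fold change was −0.28 (SE 0.20), and −0.08 without Cre-negative replicate 1. Tpm1 (chr9:67022590-67049672), the main tropomyosin of the heart, had 110880, 93102 and 94164 against 87493, 81744 and 82095 normalized counts. Values of the genotypes did not overlap in counts or in TPM, and the log2 fold change was −0.25 (SE 0.14), and −0.16 without Cre-negative replicate 1. Tmod1, which caps the pointed end of the thin filament, had a log2 fold change of −0.21 (SE 0.17), and Lmod2, which elongates that end, had −0.17 (SE 0.21). Without Cre-negative replicate 1 the value was −0.01 for Tmod1 and 0.02 for Lmod2, and without Cre-positive replicate 1 it was −0.32 for Lmod2.

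Tpm2 (chr4:43513726-43523583), a tropomyosin of slow skeletal and smooth muscle, was the only thin filament gene with a log2 fold change above 0. It had 894, 1371 and 1471 normalized counts in Cre-negative and 2162, 1429 and 1323 in Cre-positive ventricles. The highest and the lowest value were those of Cre-positive replicate 1 and Cre-negative replicate 1, and the other 4 ventricles lay within 1323 to 1471. For this gene the log2 fold change was 0.39 (SE 0.24), 0.20 without Cre-negative replicate 1 and 0.14 without Cre-positive replicate 1. Those 2 libraries also held the lowest sum of smooth muscle and mural genes (610 TPM in Cre-negative replicate 1, against 1073 to 1321 in the other ventricles) and the highest sum of skeletal muscle genes (209 TPM in Cre-positive replicate 1, against 16.8 to 24.6). The part of other muscle in the level of Tpm2 was not tested.

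**Figure D2:**
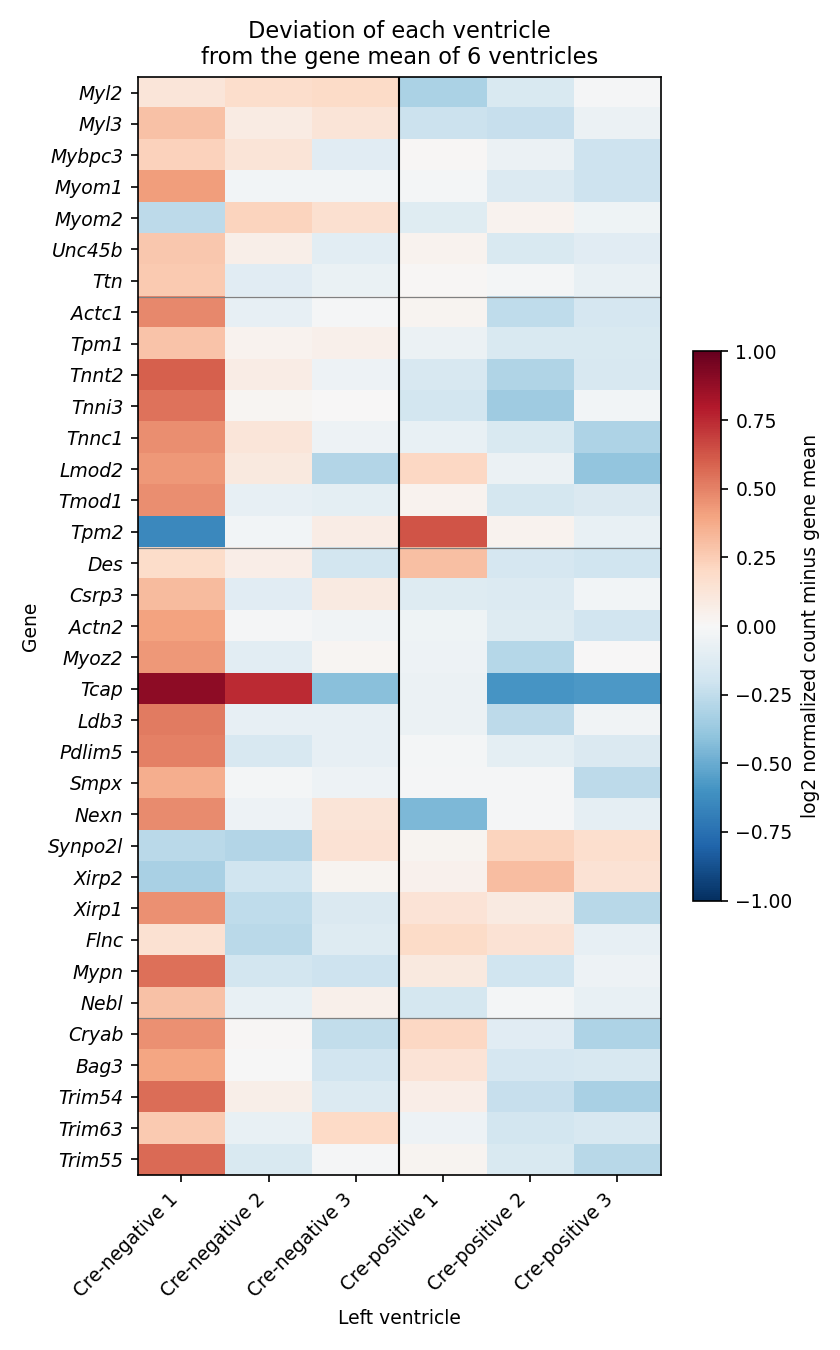
Each cell shows the log2 normalized count of 1 gene in 1 left ventricle minus the mean of the 6 ventricles for that gene, red above and blue below the mean, with the Cre-negative ventricles left of the black line and grey lines between the 4 groups of genes. The median deviation of the 35 genes was 0.40 in Cre-negative replicate 1, −0.02 and −0.05 in the other Cre-negative ventricles, and −0.01, −0.15 and −0.15 in Cre-positive replicates 1, 2 and 3.

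Of the 15 genes of the Z-disc, 12 had a log2 fold change below 0 and 3 above 0, with a median of −0.20, while with scaling to the cardiomyocyte genes 2 of the 15 were below 0 and on the TPM scale 9 of the 15. Without Cre-negative replicate 1, 8 of the 15 were below 0 and the median was −0.04. Tcap (chr11:98383811-98384953), or telethonin, which ties the ends of titin together, had the lowest log2 fold change of the 35 genes. It had 9691, 8733 and 3903 normalized counts in Cre-negative ventricles and 5013, 3455 and 3505 in Cre-positive ventricles. Cre-negative replicates 1 and 2 were high, and Cre-negative replicate 3 lay among the Cre-positive values, so that the genotypes overlapped. Its log2 fold change was −0.90 (SE 0.33, 95% interval −1.66 to −0.14), and it ranged from −1.21 to −0.67 (without Cre-negative replicate 1) when each ventricle was left out in turn. Cre-positive replicate 2 was at −0.59 and Cre-negative replicate 1 at 0.89 from the mean of this gene on the log2 scale, the widest spread in the plot of deviations.

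Nexn (chr3:152236982-152266350), nexilin, which binds actin at the Z-disc and at junctional membranes, had 7495, 5201 and 5883 normalized counts against 3938, 5338 and 5075. Cre-positive replicate 1 was the lowest and Cre-negative replicate 1 the highest, and the other 4 ventricles overlapped. The log2 fold change was −0.37 (SE 0.17), −0.22 without Cre-negative replicate 1 and −0.25 without Cre-positive replicate 1. Actn2, the alpha-actinin that crosslinks thin filaments in the Z-disc, had 37959, 28552 and 28090 normalized counts in Cre-negative and 27914, 26243 and 25139 in Cre-positive ventricles. The genotypes did not overlap, by a margin of 28090 against 27914, and the log2 fold change was −0.25 (SE 0.15), and −0.10 without Cre-negative replicate 1. Csrp3 (chr7:48830398-48848051), muscle LIM protein, had 13481, 10056 and 11578 against 9930, 9862 and 10626. Its values overlapped and its log2 fold change was −0.21 (SE 0.13), and −0.10 without Cre-negative replicate 1. Des (chr1:75360292-75368579), the intermediate filament protein that links Z-discs of neighbouring myofibrils, had 69151, 63970 and 53742 against 74980, 54329 and 53165. Its highest value was in Cre-positive replicate 1, and its log2 fold change was −0.03 (SE 0.18), 0.04 without Cre-negative replicate 1 and −0.21 without Cre-positive replicate 1.

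Of the 4 genes with a log2 fold change above 0, Xirp2 had the smallest p. Xirp2 (chr2:67446000-67526620) encodes an actin-binding Xin repeat protein of the intercalated disc and of the Z-disc region. It had 9539, 10366 and 12159 normalized counts in Cre-negative and 12276, 14727 and 13155 in Cre-positive ventricles. Values of the genotypes did not overlap in counts or in TPM, although Cre-negative replicate 3 and Cre-positive replicate 1 were close (12159 and 12276). For this gene the log2 fold change was 0.32 (SE 0.13, 95% interval 0.02 to 0.63), 0.24 without Cre-negative replicate 1 and 0.38 without Cre-positive replicate 1. The adjusted p was 0.714 (edgeR's quasi-likelihood test), and the exact two-sided permutation p of its normalized counts was 0.1, the smallest that 3 mice against 3 can give. Synpo2l (chr14:20658945-20668354), an actin-bundling protein of the Z-disc, had 4533, 4448 and 6042 against 5566, 6368 and 6121 normalized counts. Cre-negative replicate 3 lay within the Cre-positive range, and the log2 fold change was 0.27 (SE 0.14), 0.19 without Cre-negative replicate 1 and between 0.19 and 0.42 (without Cre-negative replicate 3) when each ventricle was left out in turn. Flnc (chr6:29433153-29461889), filamin C, which crosslinks actin at the Z-disc and gathers at sites of myofibril damage, had 7833, 5848 and 6443 against 8034, 7773 and 6666. The genotypes overlapped, with a log2 fold change of 0.16 (SE 0.14), 0.28 without Cre-negative replicate 1, 0.07 without Cre-negative replicate 2 and 0.11 without Cre-positive replicate 1. Xirp1, the other Xin repeat gene, had a log2 fold change of −0.06 (SE 0.20) with all ventricles, 0.19 without Cre-negative replicate 1 and −0.14 without Cre-positive replicate 1. For Xirp2, Synpo2l, Flnc and Tpm2 the log2 fold change was above 0 in every scaling and with each ventricle left out.

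The other Z-disc genes were Ldb3 (Cypher, −0.26), Myoz2 (a calsarcin that binds calcineurin, −0.24), Pdlim5 (an adaptor of kinases to alpha-actinin, −0.21), Smpx (a small muscle protein, −0.20), Nebl (nebulette, −0.19) and Mypn (myopalladin, −0.14), with standard errors of 0.12 to 0.21 on these log2 fold changes. All 6 were highest in Cre-negative replicate 1, and without it the values were −0.04 for Ldb3, −0.07 for Myoz2, 0.03 for Pdlim5, −0.06 for Smpx, −0.08 for Nebl and 0.14 for Mypn. Without Cre-positive replicate 1 the value for Mypn was −0.22.

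**Figure D3:**
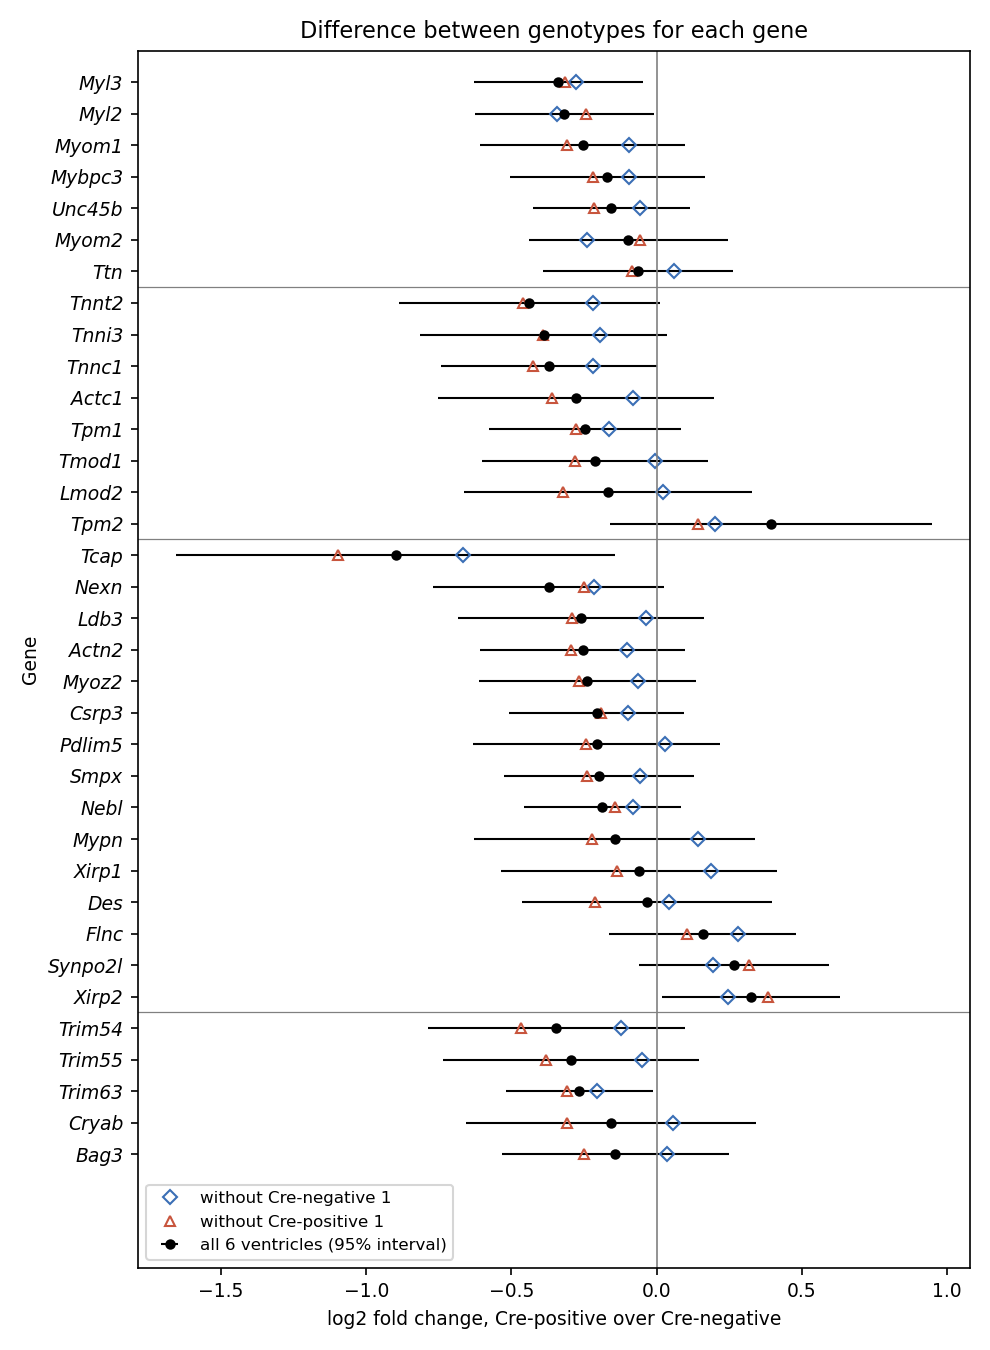
Black points are log2 fold changes, Cre-positive over Cre-negative, from edgeR for each of the 35 genes with 95% intervals, blue diamonds the values without Cre-negative replicate 1 and red triangles those without Cre-positive replicate 1, and grey lines separate the 4 groups of genes. The intervals of Myl3, Myl2, Tcap, Trim63 and Xirp2 lie on 1 side of 0, and most diamonds lie nearer to 0 than the black points.

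All 5 chaperones and ubiquitin ligases had a log2 fold change below 0, with a median of −0.27, while with scaling to the cardiomyocyte genes 0 of the 5 were below 0. All 5 were highest in Cre-negative replicate 1, and without that ventricle 3 of the 5 were below 0 (median −0.05). Cryab (chr9:50745951-50756636), alpha B-crystallin, which protects desmin and titin, had 43557, 31978 and 26735 normalized counts in Cre-negative and 36738, 29346 and 25648 in Cre-positive ventricles. The genotypes overlapped, and the log2 fold change was −0.16 (SE 0.22), 0.06 without Cre-negative replicate 1 and −0.31 without Cre-positive replicate 1. Bag3 (chr7:128523583-128546981), a co-chaperone of Z-disc protein turnover, had 7093, 5375 and 4723 against 5936, 4799 and 4843, with a log2 fold change of −0.14 (SE 0.17), 0.04 without Cre-negative replicate 1 and −0.25 without Cre-positive replicate 1. The 3 muscle RING finger ligases are Trim63, Trim54 and Trim55. Trim63 had 1716, 1360 and 1643 normalized counts in Cre-negative and 1384, 1258 and 1281 in Cre-positive ventricles. Cre-positive replicate 1 lay above Cre-negative replicate 2, so the genotypes overlapped, and the log2 fold change was −0.27 (SE 0.11, 95% interval −0.52 to −0.01), and −0.20 without Cre-negative replicate 1. Trim54 and Trim55 had log2 fold changes of −0.34 (SE 0.19) and −0.30 (SE 0.19), and without Cre-negative replicate 1 these were −0.12 and −0.05.

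Summed over the 35 genes, the level was 94325, 82532 and 80806 TPM in Cre-negative ventricles and 77325, 75719 and 76793 TPM in Cre-positive ventricles, which is 7.57% to 9.43% of all TPM. The sums did not overlap between genotypes, and the means were 85888 ± 7358 (SD, n = 3) and 76613 ± 818 (SD, n = 3). The same was so of the thin filament sum, at 45436 to 56405 against 42037 to 44345 TPM. The sums of the thick filament and M-band genes (18865 to 20600 against 15795 to 19027 TPM), of the Z-disc genes (9967 to 12187 against 9922 to 10718 TPM) and of the chaperones and ligases (4803 to 6868 against 4815 to 6466 TPM) overlapped.

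Other cardiomyocyte genes were looked at beside these sums, and none of them passed the test (edgeR's quasi-likelihood test, adjusted p 0.714 to 0.764). The 15 cardiomyocyte genes outside the sarcomere, such as Atp2a2, the calcium pump of the sarcoplasmic reticulum, Mb, the oxygen store myoglobin, and Ckm, muscle creatine kinase, summed to 44966, 33562 and 32733 TPM in Cre-negative and to 32252, 28029 and 32854 TPM in Cre-positive ventricles. All 15 had a log2 fold change below 0, and 14 of the 15 on the TPM scale. Their sums overlapped between genotypes. Normalized counts of 7 of the 15 were all lower in Cre-positive ventricles. The same was so of 7 of the 35 genes and of 6.85% of all genes tested. The median log2 fold change of the 15 was −0.36, and −0.13 without Cre-negative replicate 1, which held the highest value of all 15. The sum of the 35 genes divided by the sum of these 15 was 2.10, 2.46 and 2.47 in Cre-negative and 2.40, 2.70 and 2.34 in Cre-positive ventricles. This ratio overlapped between genotypes, with means of 2.34 ± 0.21 and 2.48 ± 0.20 (SD, n = 3). The sum of 9 fibroblast genes was 4800, 7635 and 6790 TPM in Cre-negative and 8709, 7609 and 8709 TPM in Cre-positive ventricles, and 7 of the 9 had a log2 fold change above 0 with TMM scaling (median 0.10, and 0.06 without Cre-negative replicate 1) and all 9 on the TPM scale. Cre-negative replicate 1 was thus the highest in the sum of cardiomyocyte genes and the lowest in the sum of fibroblast genes. Not all of the 9 fibroblast genes followed their sum in normalized counts. Dcn was highest in that ventricle (13407), and Pdgfra and Mfap5 were lowest in Cre-negative replicates 2 and 3. Of 8 smooth muscle and mural genes, 6 had a log2 fold change above 0 (median 0.25, and 0.08 without Cre-negative replicate 1). None of the 8 passed the test (edgeR's quasi-likelihood test, adjusted p 0.714 to 0.920). Normalized counts of 2 of the 8 were all higher in Cre-positive ventricles, as in 7.55% of all genes tested. The part of cell composition in the values of the 35 genes was not tested.

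**Figure D4:**
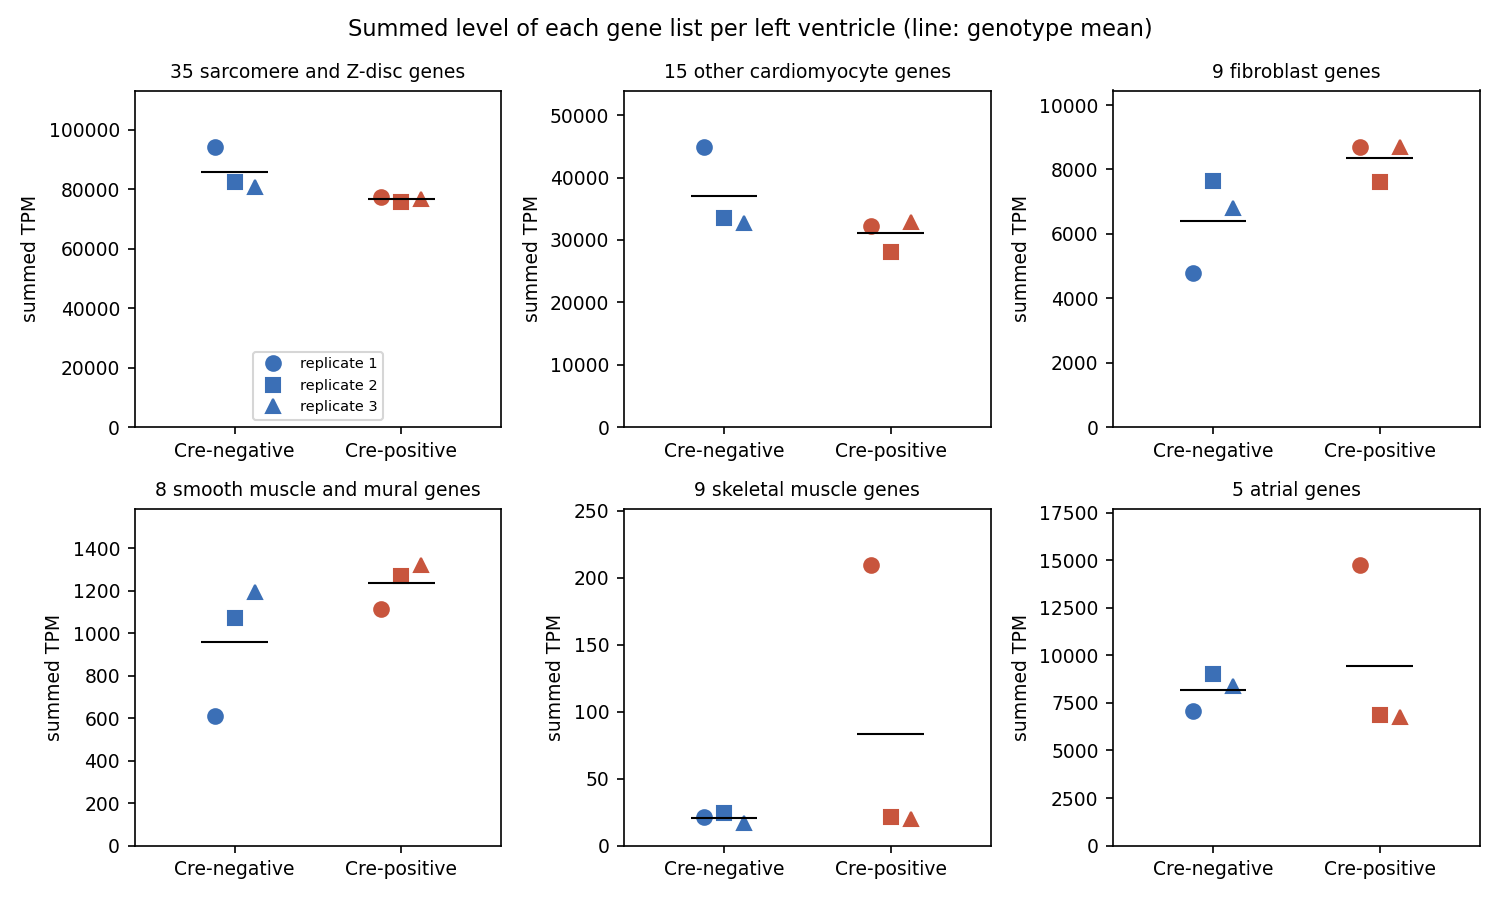
Each panel plots the summed TPM of a list of genes in each left ventricle from an axis that starts at 0, with blue for Cre-negative and red for Cre-positive ventricles, marker shape for the replicate and a line at the genotype mean. Cre-negative replicate 1 is highest in the panels of the 35 sarcomere and Z-disc genes and of the 15 other cardiomyocyte genes and lowest in those of fibroblast and of smooth muscle and mural genes, and Cre-positive replicate 1 stands apart in skeletal muscle genes (209 TPM) and atrial genes (14740 TPM).

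Markers of other muscle were looked at because several of the 35 genes are also expressed there. All 3 of the 9 skeletal muscle genes that passed the filter on low counts (Tnnt3, Tnni2 and Atp2a1) had a log2 fold change above 0 with all ventricles, and the median of the 3 was −0.37 without Cre-positive replicate 1. Their list summed to 16.8 to 24.6 TPM in Cre-negative ventricles and to 209, 21.5 and 19.9 TPM in Cre-positive replicates 1, 2 and 3. Myh2 and Myh4, fast skeletal myosins, had 0 counts in all 3 Cre-negative ventricles. Of the 5 atrial genes 4 were tested, with 4 log2 fold changes above 0, and 2 of the 4 below 0 without Cre-positive replicate 1 (median 0.12, and −0.12 without it). The 5 summed to 7100 to 9036 TPM in Cre-negative and to 14740, 6851 and 6738 TPM in Cre-positive ventricles, mostly from Nppa, which is also a stress gene of the ventricle. The atrial gene Bmp10 had 29 counts in Cre-negative replicate 1 and 0 in the other 5 ventricles. Without Cre-positive replicate 1, all 35 genes together kept 31 log2 fold changes below 0.

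Beyond the 35 genes, 44 further genes of the sarcomere, its Z-disc and its chaperones were listed, and 43 of them passed the filter on low counts. None passed the test (edgeR's quasi-likelihood test with Benjamini-Hochberg adjustment, adjusted p 0.714 to 0.975). At an unadjusted p under 0.05 in that test, 0 were lower and 1 was higher, against 2.98% and 2.85% of all genes tested. Normalized counts were all lower in Cre-positive ventricles for 1 gene and all higher for 3, against 6.85% and 7.55% of all genes tested. The log2 fold change was below 0 for 23 and above 0 for 20, with a median of −0.06, while with scaling to the cardiomyocyte genes 2 were below 0 and 41 above. Without Cre-negative replicate 1 it was below 0 for 17 of the 43 (median 0.05), and without Cre-positive replicate 1 for 31 of the 43 (median −0.21). The gene with the smallest p was Pdlim3, a partner of alpha-actinin at the Z-disc, with 623, 584 and 715 normalized counts in Cre-negative and 739, 806 and 732 in Cre-positive ventricles. The genotypes did not overlap, and its log2 fold change was 0.24 (SE 0.10). Pdlim1, a related LIM protein that other cell types also express, had 2206, 2215 and 2304 against 2747, 2437 and 2522, also without overlap, with a log2 fold change of 0.20 (SE 0.09). Mylk3, the kinase that phosphorylates the regulatory light chain Myl2, had 6901, 5644 and 4627 against 4677, 4595 and 4582. Its genotypes overlapped and its log2 fold change was −0.31 (SE 0.15), and −0.16 without Cre-negative replicate 1.

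Isoforms were compared as TPM ratios of paralogous genes, which do not depend on how a library is scaled, and 6 ratios were tested with adjustment over the 6. Acta1, the actin of skeletal muscle that is also made by the stressed heart, stood at 9.76%, 9.27% and 9.23% of Actc1 in Cre-negative and at 13.1%, 12.4% and 11.6% in Cre-positive ventricles. Values of the genotypes did not overlap, and the Cre-negative values lay close together. The ratio was 0.39 higher on the log2 scale in Cre-positive ventricles (exact two-sided permutation p = 0.1, adjusted 0.3, n = 3 mice against 3), with 0.1 the smallest p that the design allows. Acta1 by itself had 25894, 16666 and 17352 against 25374, 19794 and 19578 normalized counts, which overlapped, with a log2 fold change of 0.11 (SE 0.20), 0.34 without Cre-negative replicate 1 and −0.02 without Cre-positive replicate 1. Cre-positive replicate 1 had both the highest ratio and the highest sum of skeletal muscle genes (209 TPM). In Cre-positive replicates 2 and 3 that sum was 21.5 and 19.9 TPM. The part of skeletal muscle RNA in the ratio was not tested.

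Tpm2 stood at 0.485%, 1.01% and 1.08% of Tpm1 in Cre-negative and at 1.68%, 1.19% and 1.10% in Cre-positive ventricles (exact two-sided permutation p = 0.1, adjusted 0.3, n = 3 against 3). The genotypes did not overlap, but 1.08% and 1.10% are nearly equal. The ratio of Myh7, the slow myosin heavy chain, to Myh6, the fast one of the adult mouse heart, was 4.25%, 8.26% and 4.26% in Cre-negative and 3.50%, 7.83% and 3.51% in Cre-positive ventricles. Replicate 2 of each genotype stood above the other 4 ventricles, and the genotypes overlapped (exact permutation p = 0.5, adjusted 0.9, n = 3 against 3). Myh6 alone had a log2 fold change of −0.30 (SE 0.21), and −0.07 without Cre-negative replicate 1. Myh7 had −0.45 (SE 0.32), and leaving out each ventricle in turn gave −0.86 (without Cre-positive replicate 2) to −0.24 (without Cre-negative replicate 2). The ratios of Tnni1 to Tnni3, of Myl7 to Myl2 and of Myl4 to Myl3 overlapped widely (exact permutation p 0.7 to 0.9, adjusted 0.9, n = 3 against 3). The atrial light chain Myl7 varied from 0.173% to 7.06% of Myl2, both in Cre-positive ventricles. How reads that fit both genes of a pair were divided was not tested, and where a pair shares sequence its ratio is uncertain.

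**Figure D5:**
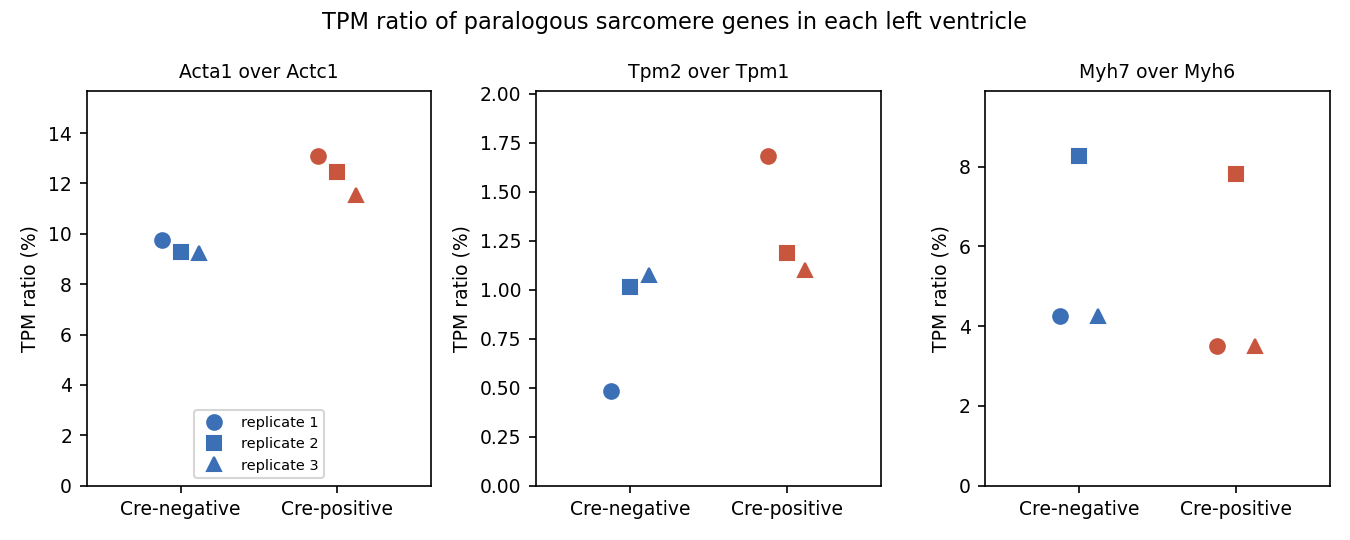
Each panel plots the TPM of 1 gene as a percentage of a paralogous gene in each left ventricle from an axis that starts at 0, with blue for Cre-negative and red for Cre-positive ventricles and marker shape for the replicate. Acta1 over Actc1 lies at 9.23% to 9.76% in Cre-negative and 11.6% to 13.1% in Cre-positive ventricles, Tpm2 over Tpm1 meets near 1.1%, and Myh7 over Myh6 is high in replicate 2 of both genotypes.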

How the data were processed

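RNA of 6 left ventricles, 3 per genotype, was sequenced once per mouse, and no label names a batch. For each gene the authors deposited an estimated count, not normalized, and FPKM and TPM values scaled to gene length and depth. The deposited FPKM values were not used further. The submitters' processing notes name Bowtie2 2.2.5, RSEM 1.2.12 and GRCm38.p6, without their order, and whether counting used strand is not given in the sources used here. The authors' genotype averages, and their own comparison with log2 fold changes, p-values and q-values, were not used. Per-sample columns without a sample numbered 0.

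Of the estimated counts 11.5% were not whole, and all were rounded. edgeR 4.0.16 in R 4.3.3 was used with filterByExpr (minimum count 10, minimum total 15), which kept 13817 genes and all 35 described, with TMM scaling and the quasi-likelihood test without covariates, Benjamini-Hochberg adjustment and a threshold of 0.05. Normalized counts are TMM-scaled to the mean effective library size of 14293745. The edgeR fit was also run on simulated counts, and the outcome is not given here. Single values and ratios were compared by exact two-sided permutation tests (scipy 1.17.1). p-values measure the spread between these mice. A gene with 0 counts could have had up to 3, which is 0.202 to 0.228 per 1000000 counts, for counting error only. Gene positions and promoters are those of RefSeq on GRCm38.p6.

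The 35 genes, the lists and the tests were chosen with earlier results of these data known. Genes given in full were the 2 with the highest mean TPM in each group, the 4 lowest and 4 highest log2 fold changes, and up to 6 without overlap between genotypes. Trim63 and Actn2 were added after their values were seen. Of the other sarcomere genes, the 3 with the smallest p and Myh6, Myh7 and Acta1 were named. Alternatives were 2 filters, 4 scalings, DESeq2 1.42.0, limma-trend (limma 3.58.1) on log2(TPM + 1) and log2(TPM + 0.1), a replicate block and leaving out each ventricle. The scaling to 15 cardiomyocyte genes was added after seeing the data.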

Additional observations from a re-analysis of the deposited data

How the results depend on the processing

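Under 16 alternatives 0 of the 35 genes passed the threshold, with 0.509 the smallest adjusted p of any of them. Of 560 log2 fold changes of these genes under the alternatives 48 had the other sign, in 24 genes, and 11 genes kept their sign throughout. Of these 48, 24 came from the scaling to 15 cardiomyocyte genes, chosen after seeing the data. There the median of the 35 genes was 0.15, 7 were below 0, and the log2 fold changes with the other sign were 0.16 for Mybpc3, 0.28 for Ttn, 0.095 for Myom1, 0.18 for Myom2, 0.18 for Unc45b, 0.083 for Tpm1, 0.076 for Actc1, 0.15 for Tmod1, 0.19 for Lmod2, 0.094 for Actn2, 0.10 for Ldb3, 0.11 for Myoz2, 0.13 for Csrp3, 0.23 for Mypn, 0.15 for Nebl, 0.16 for Pdlim5, 0.32 for Xirp1, 0.15 for Smpx, 0.29 for Des, 0.20 for Cryab, 0.21 for Bag3, 0.055 for Trim63, 0.017 for Trim54 and 0.074 for Trim55. With library size alone these were Ttn (0.0061), Xirp1 (0.015) and Des (0.029), and with limma-trend on log2(TPM + 1) and log2(TPM + 0.1) they were Ttn (0.060 and 0.061), Myom2 (0.035 and 0.035), Mypn (0.011 and 0.011), Xirp1 (0.082 and 0.082) and Des (0.073 and 0.073). Leaving out each ventricle in turn, the log2 fold change ranged from −0.13 to 0.060 for Ttn, −0.33 to 0.023 for Lmod2, −0.28 to 0.14 for Mypn, −0.33 to 0.029 for Pdlim5, −0.19 to 0.19 for Xirp1, −0.21 to 0.053 for Des, −0.31 to 0.055 for Cryab and −0.26 to 0.037 for Bag3. The median of the 35 genes ranged from −0.30 to −0.07 and the number below 0 from 23 to 31, and both were nearest to balance without Cre-negative replicate 1. Among all genes tested 1 was called, against 5 by the DESeq2 Wald test, 2 by limma-trend with either pseudocount, 0 with a replicate block, and 0 to 2 with 1 ventricle left out. The cause of these changes was not tested.

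Whether replicate numbers pair the ventricles is not given by the labels, and correlations over 3 ventricles per genotype cannot decide it. Deviations of same-numbered ventricles from their group means correlated across genes at 0.35, 0.07 and −0.03, and those of other pairs at −0.37 to 0.35. With the replicate block 31 of the 35 genes were below 0 (median −0.19), and their smallest adjusted p was 0.562 (edgeR's quasi-likelihood test). With 3 ventricles per genotype the standard errors were 0.11 to 0.33 on the log2 scale, and every one of the 35 genes had 894 or more normalized counts in each ventricle.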

Other observations

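Some values outside the comparison of the 35 genes varied more between ventricles of 1 genotype than between genotypes. The atrial light chain Myl4 stood at 10.3%, 8.63% and 1.28% of Myl3 in Cre-negative ventricles and at 26.2%, 0.617% and 3.25% in Cre-positive ventricles. Sarcolipin (Sln), an atrial inhibitor of the calcium pump, had 615, 491 and 109 counts against 1076, 17 and 276, and its highest and lowest values belonged to the same ventricles as those of Myl4. Of 5 neutrophil genes, 4 had their highest normalized count in Cre-negative replicate 1, with a list sum of 413 TPM there against 48.4 to 156 TPM elsewhere. The 5 haemoglobin and haem genes of erythrocytes summed to between 14363 and 27374 TPM, with overlap between genotypes.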
